A study of Mus musculus with 9 samples.

Results

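The 10 genes described here encode the precursors of neuropeptides that are known from the midbrain and brainstem: Penk, Pdyn, Tac1, Nts, Sst, Npy, Adcyap1, Cartpt, Crh and Ucn. They were matched by symbol, through the Ensembl identifier of each, and all 10 were found among the 47729 gene identifiers of the count files. The libraries came from dissected midbrain of mice 180 days old and were sequenced as bulk RNA. All mice were on the C57/Bl6 background and carried 1 Pitx3-Cre allele (Pitx3-Cre/+) and the Cre-dependent reporter Rosa-lox-stop-lox-Yfp. The groups differed in Dot1l, the gene of the methyltransferase that modifies lysine 79 of histone H3. Controls had no floxed allele (Dot1l-+/+, written Dot1l(+/+)), the second group had 1 (Dot1l-+/fl, written Dot1l(fl/+)) and the third had 2 (Dot1l-fl/fl, written Dot1l(fl/fl)). Each group had 3 libraries, and each library was made from pooled tissue of 3 mice, and the spread given below is therefore a spread between pools. Cre made from the Pitx3 locus acts in dopamine neurons, and the dissected tissue also holds many cells in which Dot1l is not removed. The controls carry the same Pitx3-Cre knock-in allele.

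Neuropeptides are cut from larger precursor proteins in the secretory pathway, packed into dense-core vesicles and released to act on G protein-coupled receptors, often far from the site of release. Penk and Pdyn give the opioid peptides enkephalin and dynorphin, Tac1 gives substance P and neurokinin A, and Nts gives neurotensin. In the midbrain several of these peptides are made by dopamine neurons or by the neurons that contact them. Urocortin, the product of Ucn, and CART, the product of Cartpt, are well known from the centrally projecting neurons of the Edinger-Westphal nucleus, which lies close to the midline of the midbrain.

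Several precursor genes are textbook targets of CREB, a factor that binds the cyclic AMP response element TGACGTCA, a palindrome that reads the same on both strands. RefSeq promoter windows on GRCm38.p6, from 250 bases before to 50 bases after the start of transcription, were matched for 8 of the 10 genes (all but Penk and Crh). These 8 genes had 10 windows. The full element was in 3 of the 10, and it was in 588 of all 32851 windows (1.79%). The shorter element TGACGT, searched on both strands, was found in 5 of the 10, which were those 3, as its letters require, and the windows of Adcyap1, and it was in 7.51% of all windows. The letters TATAAA of the TATA box, searched on both strands, were in 1 of the 10, a window of Adcyap1, and in 13.6% of all windows. The 3 full elements are shown to place them in their promoters. Each is given on the minus strand, 5′ to 3′, with the element in capitals and its distance from the RefSeq start. GENCODE M21 begins Sst and Cartpt further upstream, so these 2 stretches lie inside its gene spans, while that of Ucn lies before the span.
Sst, chr16:23890874-23890903, 48 to 41 bases before the RefSeq start: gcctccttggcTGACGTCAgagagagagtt
Cartpt, chr13:99900777-99900806, 112 to 105 bases before the RefSeq start: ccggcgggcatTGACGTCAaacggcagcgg
Ucn, chr5:31138921-31138950, 44 to 37 bases before the RefSeq start: atgttcttcgcTGACGTCAgtcggagctgt
A match describes these letters only. The measured levels of these 3 genes follow with those of the other 7.

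Library totals lay between 16422135 and 28403218 counts, and the variance between replicates of a group was 4.47 to 16.6 times that of counting. Dopamine neuron markers were present in every library (Th at 44.5 to 84.3 counts scaled to library size, CPM), beside far higher levels of oligodendrocyte genes (Mbp at 3819 to 4530 CPM), so the label of midbrain dopamine neurons describes the target of the dissection and not a pure cell type. Counts of Dot1l itself do not measure the loss of the floxed exon. Dot1l stood at 85.2, 80.2 and 85.1 CPM in Dot1l(+/+), 84.2, 60.6 and 75.6 in Dot1l(fl/+), while Dot1l(fl/fl) had 82.1, 73.9 and 82.9. Levels of hypothalamic and choroid plexus markers differed between libraries, also within Dot1l(fl/+). The summed level of 15 hypothalamic neuron markers was 138 and 71.1 CPM in Dot1l(fl/+) replicates 1 and 3, against 8.87 in replicate 2, 9.92 to 16.1 in Dot1l(+/+) and 9.06 to 11.8 in Dot1l(fl/fl). Most of it was Pmch, the precursor of melanin-concentrating hormone (99.4 and 49.6 CPM in those 2 libraries), while Agrp and Rax were under 10 counts in every library. The summed level of 5 choroid plexus markers was 104, 169 and 562 CPM in Dot1l(fl/+), 61.4 to 145 in Dot1l(+/+) and 36.2 to 42.6 in Dot1l(fl/fl). Over the 9 libraries, 7 striatal markers summed to 119 to 141 CPM, 5 serotonin neuron markers to 59.5 to 73.6, 6 oligodendrocyte markers to 10052 to 11515 and 6 astrocyte markers to 3127 to 3816. Most of the serotonin sum was Maob (30.9 to 38.8 CPM) and Htr1a (19.5 to 27.3 CPM). Other genes of that list varied more between libraries. Slc6a4 ran from 0.038 CPM in Dot1l(fl/+) replicate 3 to 4.03 in replicate 2, and Tph2 from 1.11 to 8.16 in the same libraries.

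Per kilobase of exon, Sst was the most abundant of the 10 transcripts in control midbrain, with 59.9 ± 5.08 CPM per kb (SD, n = 3), above 96.6% of the genes tested. Sst encodes somatostatin, the inhibitory peptide of a large class of GABA neurons. Cartpt followed at 22.8 ± 5.18 and Penk at 19.9 ± 2.00 CPM per kb. Next came Adcyap1, the gene of PACAP, at 12.1 ± 1.39 and Npy at 11.6 ± 1.43 CPM per kb. Tac1 and Nts were at 7.47 ± 0.961 and 7.34 ± 1.54 CPM per kb, and Ucn and Pdyn at 4.22 ± 1.28 and 3.87 ± 0.315. Crh was the lowest at 1.70 ± 0.581 CPM per kb, still above 30.2% of the genes tested. The control libraries of neighbours overlapped for Cartpt and Penk, for Adcyap1 and Npy, for Tac1 and Nts, and for Ucn and Pdyn, so the order within each of these pairs is not larger than the spread between libraries. The other neighbours in the order did not overlap. The order depends on the length used: with the longest transcript in place of all exons together, Tac1 stood at 12.9 CPM per kb and moved above Npy, and Pdyn stood at 4.68 and moved above Ucn.

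**Figure D1:**
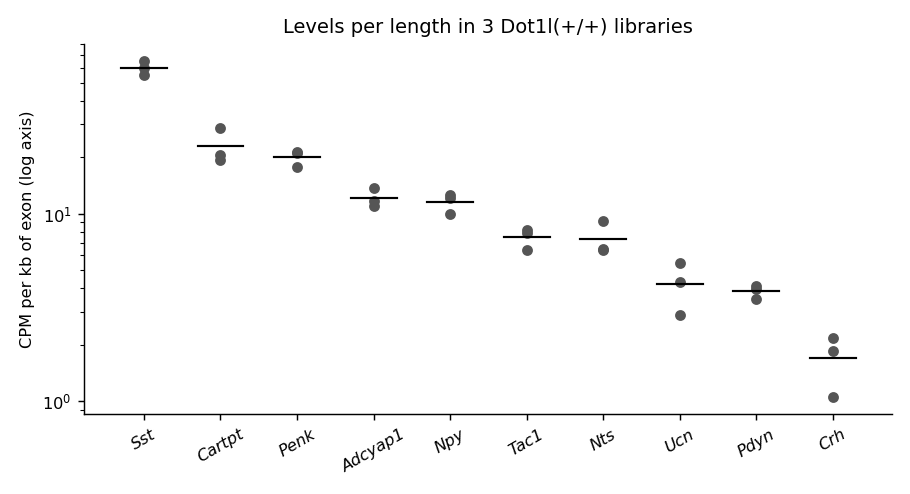
Level of each of the 10 precursor genes in the 3 Dot1l(+/+) libraries, in CPM per kb of exon on a log axis. Points are libraries and lines are means. Sst stands highest at 59.9 CPM per kb and Crh lowest at 1.70 CPM per kb.

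All 10 genes passed the filter on low counts, and differences between genotypes were tested with edgeR across 17671 genes. None of the 10 passed an adjusted p of 0.05 in any of the 3 comparisons, in which the share of all genes passing it was 0% each time. DESeq2, which called 3 to 45 genes in all over its fits, called 0 of the 10, and edgeR with no filter on low counts called 118 to 251 genes in all, 3 values of members among them (given with Cartpt below). The set is therefore described below by values, by unadjusted p-values and by whether the libraries of 2 groups overlapped. The 3 comparisons share libraries, so the same samples enter more than 1 of them.

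In Dot1l(fl/+) against Dot1l(+/+), 4 of the 10 genes were higher at an unadjusted edgeR p under 0.05 (Penk, Pdyn, Npy and Cartpt) and 0 were lower. Among all genes 4.3% were higher and 4.09% lower by this rule. The median log2 fold change of the 10 was 0.22, against -0.0034 for all genes tested, and 9 of the 10 values were above 0. No member had all 3 Dot1l(fl/+) libraries above or below all 3 controls, which 6.84% (higher) and 6.47% (lower) of all genes did.

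In Dot1l(fl/fl) against Dot1l(+/+), 3 of the 10 were higher at an unadjusted edgeR p under 0.05 (Npy, Cartpt and Ucn) and 0 were lower, where 2.21% and 1.72% of all genes were. The median log2 fold change of the 10 was 0.065, against 0.0009 for all genes, and here too 9 of the 10 values were above 0. The libraries did not overlap for 2 members, Npy and Pdyn, both higher in Dot1l(fl/fl), while 5.03% of all genes were higher and 5.25% lower without overlap.

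Between the groups with floxed alleles, Dot1l(fl/fl) against Dot1l(fl/+), 0 of the 10 were higher and 1, Nts, was lower at an unadjusted edgeR p under 0.05. The shares over all genes were 3.6% and 2.87%. Nts was also the 1 member without overlap between these groups, lower in Dot1l(fl/fl). Over all genes, 5.98% were higher and 5.14% lower without overlap. The median log2 fold change was -0.054 for the members and 0.0015 for all genes, and 5 of the 10 values were above 0.

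**Figure D2:**
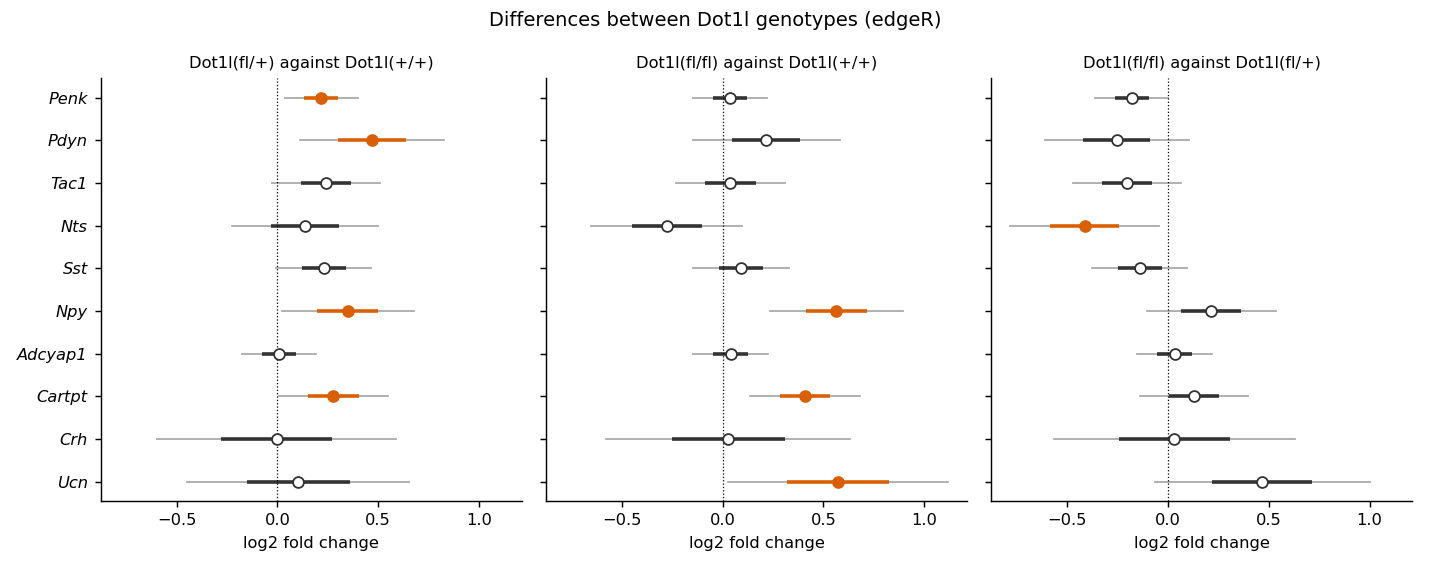
Log2 fold changes of the 10 precursor genes in the 3 comparisons from edgeR. Points are estimates, thick bars are 1 SE, thin lines are 95% confidence intervals, and filled points have an unadjusted p under 0.05. In the left panel 4 points are filled (Penk, Pdyn, Npy and Cartpt), in the middle panel 3 (Npy, Cartpt and Ucn), and in the right panel 1 (Nts).

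Of the opioid precursors, Penk (chr4:4133531-4138819 on GRCm38, minus strand) had 34.7, 34.3 and 28.8 CPM in Dot1l(+/+), 39.0, 34.6 and 39.9 in Dot1l(fl/+), while Dot1l(fl/fl) had 35.2, 31.9 and 33.0. Its Dot1l(fl/+) libraries 1 and 3 were the highest of the 9, and library 2 lay among the controls. The difference Dot1l(fl/+) against Dot1l(+/+) was 0.22 on the log2 scale (SE 0.084, edgeR unadjusted p = 0.0226, adjusted p = 0.541). It had an unadjusted p above 0.05 without Dot1l(+/+) replicate 3 (0.14), Dot1l(fl/+) replicate 1 (0.19) or Dot1l(fl/+) replicate 3 (0.18). Dot1l(fl/fl) differed from Dot1l(+/+) by 0.04, with a 95% interval of -0.15 to 0.22. The transcript A830012C17Rik overlaps Penk on the opposite strand and held 9 counts in all libraries together. The strand setting of the counting is not stated, so reads of these overlapping genes may not have been told apart.

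Pdyn (chr2:129686565-129699844, minus strand) showed the same 2 libraries more plainly. It had 11.4, 11.9 and 10.1 CPM in Dot1l(+/+), 17.5, 10.6 and 18.2 in Dot1l(fl/+), while Dot1l(fl/fl) had 12.1, 13.9 and 12.8. Dot1l(fl/+) replicates 1 and 3 were above every other library, while replicate 2 was within the controls. The difference Dot1l(fl/+) against Dot1l(+/+) was 0.47 (SE 0.167, edgeR unadjusted p = 0.0142, adjusted p = 0.541), the largest of the 10 in that comparison. Leaving out Dot1l(+/+) replicate 3 (0.41), Dot1l(fl/+) replicate 1 (0.37) or Dot1l(fl/+) replicate 3 (0.33) took the unadjusted p above 0.05, and without Dot1l(fl/+) replicate 2 the value was 0.68. In Dot1l(fl/fl) all 3 libraries were above all 3 controls, by 0.22 on the log2 scale with a 95% interval of -0.15 to 0.58.

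The 2 Dot1l(fl/+) libraries with high Penk and Pdyn were the 2 with high hypothalamic markers. The hypothalamus is rich in dynorphin neurons. Gbx2, a marker of the thalamus, was the gene nearest to Pdyn in its pattern over the 9 libraries, with 7.56, 5.58 and 9.54 CPM in Dot1l(fl/+) against 5.86 to 6.05 in Dot1l(+/+) and 6.60 to 6.85 in Dot1l(fl/fl). The 6 thalamic and glutamatergic neuron markers, Gbx2 among them, summed to 899, 690 and 922 CPM in Dot1l(fl/+), against 762 to 869 in Dot1l(+/+) and 795 to 839 in Dot1l(fl/fl). The part of these markers in the Penk and Pdyn values was not tested. In bulk tissue, a different number of cells of a type and a different amount of RNA per cell cannot be told apart, for these and all genes below.

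**Figure D3:**
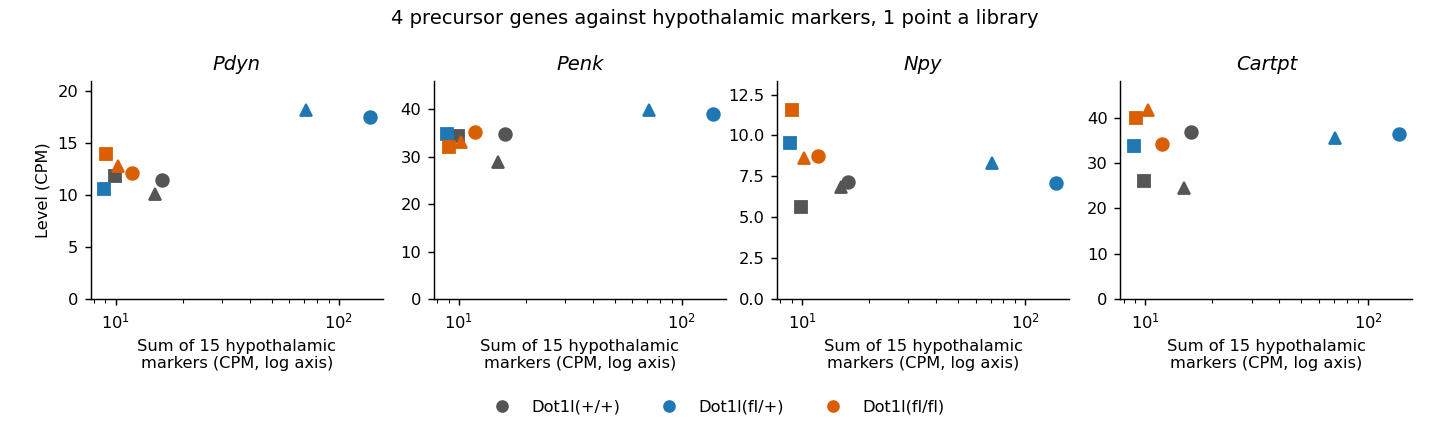
Level of Pdyn, Penk, Npy and Cartpt in CPM (vertical axes) against the summed CPM of 15 hypothalamic markers (log axis), with 1 point a library, coloured by genotype; circles, squares and triangles are replicates 1, 2 and 3. The 2 Dot1l(fl/+) libraries at 138 and 71.1 CPM of markers hold the highest Pdyn, 17.5 and 18.2 CPM, and the highest Penk, while Npy and Cartpt have their highest values in Dot1l(fl/fl) libraries with about 10 CPM of markers.

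Tac1 (chr6:7554879-7565834, plus strand) had 26.7, 27.8 and 21.7 CPM in Dot1l(+/+), 30.3, 27.1 and 32.5 in Dot1l(fl/+), while Dot1l(fl/fl) had 24.9, 22.2 and 31.5. The groups overlapped in each comparison, and here too Dot1l(fl/+) replicates 1 and 3 were above replicate 2. The log2 fold change against Dot1l(+/+) was 0.24 in Dot1l(fl/+), with a 95% interval of -0.027 to 0.51, and 0.04 in Dot1l(fl/fl), with an interval of -0.23 to 0.31.

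Nts (chr10:102481756-102490486, minus strand) was highest in Dot1l(fl/+) replicate 2, where Tac1 had the lowest value of that group. Its values were 8.09, 11.4 and 8.00 CPM in Dot1l(+/+), 8.27, 12.1 and 9.73 in Dot1l(fl/+), while Dot1l(fl/fl) had 6.40, 8.15 and 8.19. Replicate 2 was the highest in Dot1l(+/+) and in Dot1l(fl/+). All 3 Dot1l(fl/fl) libraries were below all 3 Dot1l(fl/+) libraries, although the closest pair, 8.19 and 8.27 CPM, nearly met. That difference was -0.41 on the log2 scale (SE 0.172, edgeR unadjusted p = 0.0314, adjusted p = 0.734), and its unadjusted p was above 0.05 without Dot1l(fl/+) replicate 2 (-0.25) or Dot1l(fl/fl) replicate 1 (-0.30). Against Dot1l(+/+), Nts in Dot1l(fl/fl) stood at -0.28, with a 95% interval of -0.65 to 0.097. With the replicate number as a block it was -0.27 (edgeR unadjusted p = 0.0431, adjusted p = 0.999). Neurotensin is made by neurons that contact dopamine cells and its receptor Ntsr1 is enriched in dopamine neurons; Ntsr1 had 13.5, 14.0 and 12.5 CPM in Dot1l(+/+), 14.1, 10.9 and 13.2 in Dot1l(fl/+), while Dot1l(fl/fl) had between 10.004 and 10.96. Ntsr1 was without overlap between Dot1l(fl/fl) and Dot1l(+/+), at -0.34 on the log2 scale (edgeR unadjusted p = 0.00823, adjusted p = 0.999). The summed level of 14 dopamine neuron markers was also lower there, at 603 to 634 CPM in Dot1l(fl/fl) against 763 to 855 in Dot1l(+/+) and 617 to 766 in Dot1l(fl/+). Of the 14, 10 were lower in Dot1l(fl/fl) than in Dot1l(+/+) at an unadjusted edgeR p under 0.05, where 1.72% of all genes were. The part of these markers in the Nts and Ntsr1 values was not tested.

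Sst (chr16:23889573-23890958, minus strand) had 47.1, 39.8 and 42.8 CPM in Dot1l(+/+), 41.0, 59.3 and 51.6 in Dot1l(fl/+), while Dot1l(fl/fl) had 46.9, 47.7 and 43.1. The Dot1l(fl/+) group was the widest, from near the lowest to the highest of the 9 libraries, and the groups overlapped. The log2 fold change of Dot1l(fl/+) was 0.23 (95% interval -0.0056 to 0.47, edgeR unadjusted p = 0.0549), and that of Dot1l(fl/fl) was 0.09 (-0.15 to 0.33). The Dot1l(fl/+) library with the most Sst, replicate 2, was the one with few hypothalamic markers and with the highest sum of 8 cortical and hippocampal neuron markers in its group, 784 CPM against 645 and 647. Dot1l(fl/fl) replicates 1 and 2 had similar sums of these markers, 804 and 777 CPM, with Sst at 46.9 and 47.7 CPM, near the 47.1 CPM of Dot1l(+/+) replicate 1. The part of these markers in the Sst values was not tested.

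Npy (chr6:49822710-49829507, plus strand) encodes neuropeptide Y, which in many forebrain areas is made by a subset of the somatostatin neurons. It had 7.14, 5.62 and 6.88 CPM in Dot1l(+/+), 7.13, 9.54 and 8.32 in Dot1l(fl/+), while Dot1l(fl/fl) had 8.72, 11.6 and 8.61. All 3 Dot1l(fl/fl) libraries were above all 3 controls, and the Dot1l(fl/+) libraries reached from the control range into the Dot1l(fl/fl) range. Means were 6.55 ± 0.81, 8.33 ± 1.205 and 9.64 ± 1.69 CPM (SD, n = 3) for 0, 1 and 2 floxed alleles. The log2 fold change against Dot1l(+/+) was 0.56 in Dot1l(fl/fl) (SE 0.153, 95% interval 0.24 to 0.89, edgeR unadjusted p = 0.00257, adjusted p = 0.999), a fold of 1.48. In Dot1l(fl/+) the log2 fold change was 0.35 (SE 0.152, edgeR unadjusted p = 0.0383, adjusted p = 0.572). The Dot1l(fl/fl) value kept an unadjusted p under 0.05 in 9 of 9 fits that left out 1 library, from 0.41 to 0.64, and in 7 of 7 other fits. The Dot1l(fl/+) value did so in 6 of 9, and not without Dot1l(+/+) replicate 2 (0.26), Dot1l(fl/+) replicate 2 (0.24) or Dot1l(fl/+) replicate 3 (0.35). In each comparison of every gene, 3 of these 9 fits left out a library of the group not compared, so both compared groups stayed whole. The 2 groups with floxed alleles differed by 0.21, with a 95% interval of -0.11 to 0.53.

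In the comparison where Npy was highest, Dot1l(fl/fl) against Dot1l(+/+), 10 of the 14 dopamine neuron markers were lower at an unadjusted p under 0.05, beside 1.72% of all genes, as given above with Nts. The summed level of 5 microglia markers was 203 to 215 CPM in Dot1l(+/+), 203 to 233 in Dot1l(fl/+) and 227 to 244 in Dot1l(fl/fl), with 1 of the 5 (Csf1r) higher in Dot1l(fl/fl) at an unadjusted p under 0.05, where 2.21% of all genes were. Cortical and hippocampal markers summed to 602 to 720, 645 to 784 and 635 to 804 CPM in the same order, with 1 of 8 (Neurod6) higher in Dot1l(fl/fl) by that rule, and a median log2 fold change of 0.04 over the 8. None of these 13 markers was at 0 in any library. The 7 GABA neuron markers had 0 of 7 past an unadjusted p of 0.05 in any comparison, with a sum of 1626 to 1753 CPM in Dot1l(+/+) and 1679 to 1757 in Dot1l(fl/fl). Their part in the Npy values was not tested.

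Cartpt (chr13:99898489-99901091, minus strand) had 36.7, 26.1 and 24.6 CPM in Dot1l(+/+), 36.5, 33.8 and 35.4 in Dot1l(fl/+), while Dot1l(fl/fl) had 34.2, 39.9 and 41.8. Control replicate 1 lay within the range of the other groups and the other 2 controls lay below every other library, so the groups overlapped through 1 control library. Means were 29.2 ± 6.62, 35.2 ± 1.32 and 38.6 ± 3.93 CPM (SD, n = 3). The log2 fold change against Dot1l(+/+) was 0.41 in Dot1l(fl/fl) (SE 0.126, 95% interval 0.14 to 0.68, edgeR unadjusted p = 0.00626, adjusted p = 0.999). For Dot1l(fl/+) the value was 0.28 (SE 0.125, edgeR unadjusted p = 0.0446, adjusted p = 0.585). Without Dot1l(+/+) replicate 1 the Dot1l(fl/fl) value was 0.61, without Dot1l(+/+) replicate 3 it was 0.30, and the unadjusted p was under 0.05 in 9 of 9 such fits. The Dot1l(fl/+) value had an unadjusted p above 0.05 without Dot1l(+/+) replicate 2 (0.21), Dot1l(+/+) replicate 3 (0.17), Dot1l(fl/+) replicate 1 (0.25) or Dot1l(fl/+) replicate 3 (0.27), and it was 0.47 without Dot1l(+/+) replicate 1. In the fits that kept all genes with a count, the adjusted p of Cartpt and Npy in Dot1l(fl/fl) was 0.00109 and 0.0162, and that of Pdyn in Dot1l(fl/+) was 0.0127. Over all settings these adjusted p-values reached 1.0, 1.0 and 0.867.

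**Figure D4:**
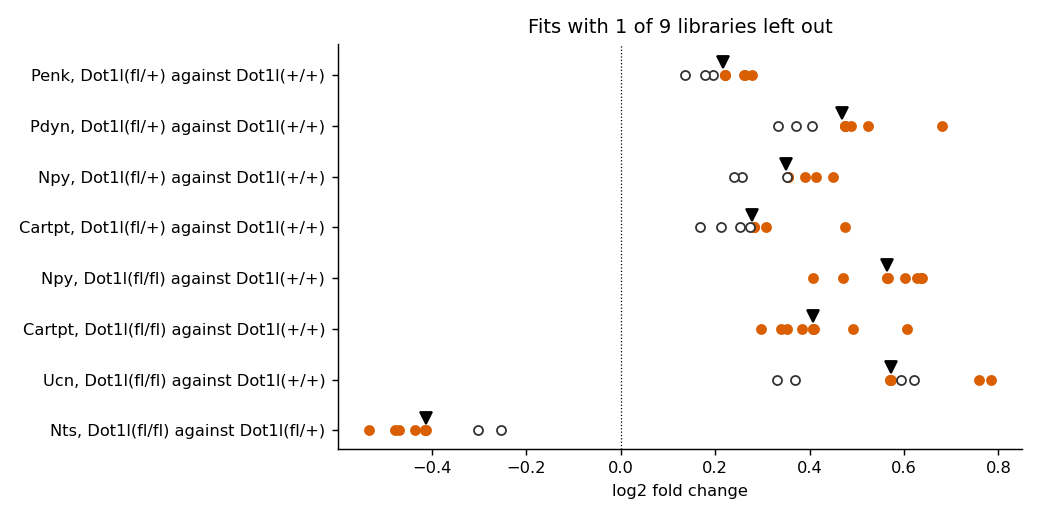
Log2 fold changes of the 8 gene and comparison pairs with an unadjusted edgeR p under 0.05, refitted with 1 of the 9 libraries left out at a time. Triangles are the fit of all libraries, filled points have an unadjusted p under 0.05 and open points do not. Npy and Cartpt in Dot1l(fl/fl) have 9 filled points of 9, while the other pairs have between 5 and 7. In 3 of the 9 refits of each pair the library left out is from the group not compared.

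Adcyap1 (chr17:93199017-93206537, plus strand) was the steadiest of the 10. It had 41.7, 51.7 and 44.0 CPM in Dot1l(+/+), 46.5, 41.6 and 49.99 in Dot1l(fl/+), while Dot1l(fl/fl) had 46.9, 45.6 and 48.8. The groups overlapped throughout. Against Dot1l(+/+) it differed by 0.01 on the log2 scale in Dot1l(fl/+), with a 95% interval of -0.18 to 0.19, and 0.04 in Dot1l(fl/fl), with an interval of -0.15 to 0.23. PACAP, its product, acts on the receptor Adcyap1r1, which was at 250 to 311 CPM.

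Ucn (chr5:31138063-31138829, minus strand), of the corticotropin-releasing hormone family, rested on 34 to 75 counts a library. It had 2.74, 1.46 and 2.18 CPM in Dot1l(+/+), 2.43, 2.05 and 2.37 in Dot1l(fl/+), while Dot1l(fl/fl) had 2.36, 2.97 and 4.31. The highest value was Dot1l(fl/fl) replicate 3, the library with the fewest counts, and the groups overlapped. The log2 fold change of Dot1l(fl/fl) against Dot1l(+/+) was 0.57 (SE 0.253, 95% interval 0.026 to 1.12, edgeR unadjusted p = 0.041, adjusted p = 0.999). Its unadjusted p was above 0.05 without Dot1l(+/+) replicate 2 (0.37), Dot1l(+/+) replicate 3 (0.59), Dot1l(fl/fl) replicate 2 (0.62) or Dot1l(fl/fl) replicate 3 (0.33). The 3 genes with the full cyclic AMP response element shown above thus stood at 0.09 (Sst), 0.41 (Cartpt) and 0.57 (Ucn) in Dot1l(fl/fl) against Dot1l(+/+), and at 0.23, 0.28 and 0.10 in Dot1l(fl/+). The 5 members whose windows did not hold these letters (Pdyn, Tac1, Nts, Npy and Adcyap1) stood between -0.28 and 0.56 in Dot1l(fl/fl) and between 0.01 and 0.47 in Dot1l(fl/+). Of the markers of cranial motor and cholinergic neurons, the neighbours of the Edinger-Westphal cells that make Cartpt and Ucn, 5 passed the filter on low counts (Chat, Slc18a3, Slc5a7, Isl1 and Prph). They summed to 7.17 to 8.56 CPM in Dot1l(+/+), 8.62 to 10.7 in Dot1l(fl/+) and 7.08 to 10.3 in Dot1l(fl/fl). At an unadjusted edgeR p under 0.05, 1 of the 5 was higher in Dot1l(fl/+) than in Dot1l(+/+) (Isl1) and 1 in Dot1l(fl/fl) (Prph), where 4.3% and 2.21% of all genes were. Isl1 had 2.82, 0.565 and 2.06 CPM in Dot1l(fl/+) against 0.687 to 1.13 in Dot1l(+/+). Its high values were in replicates 1 and 3, the Dot1l(fl/+) libraries with high hypothalamic markers. Chat overlapped between these groups, at 0.823, 0.565 and 0.572 against 0.338 to 0.902 CPM. The part of these 5 markers and of the hypothalamic markers in the Cartpt and Ucn values was not tested.

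Crh (chr3:19693401-19695396, minus strand), the precursor of corticotropin-releasing hormone itself, had 37 to 71 counts a library. It stood at 2.46, 2.88 and 1.39 CPM in Dot1l(+/+), 1.76, 2.51 and 2.37 in Dot1l(fl/+), while Dot1l(fl/fl) had 2.16, 1.74 and 3.03. The groups overlapped in each comparison. Its log2 fold change against Dot1l(+/+) was 0.03 in Dot1l(fl/fl), with a 95% interval of -0.58 to 0.63.

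**Figure D5:**
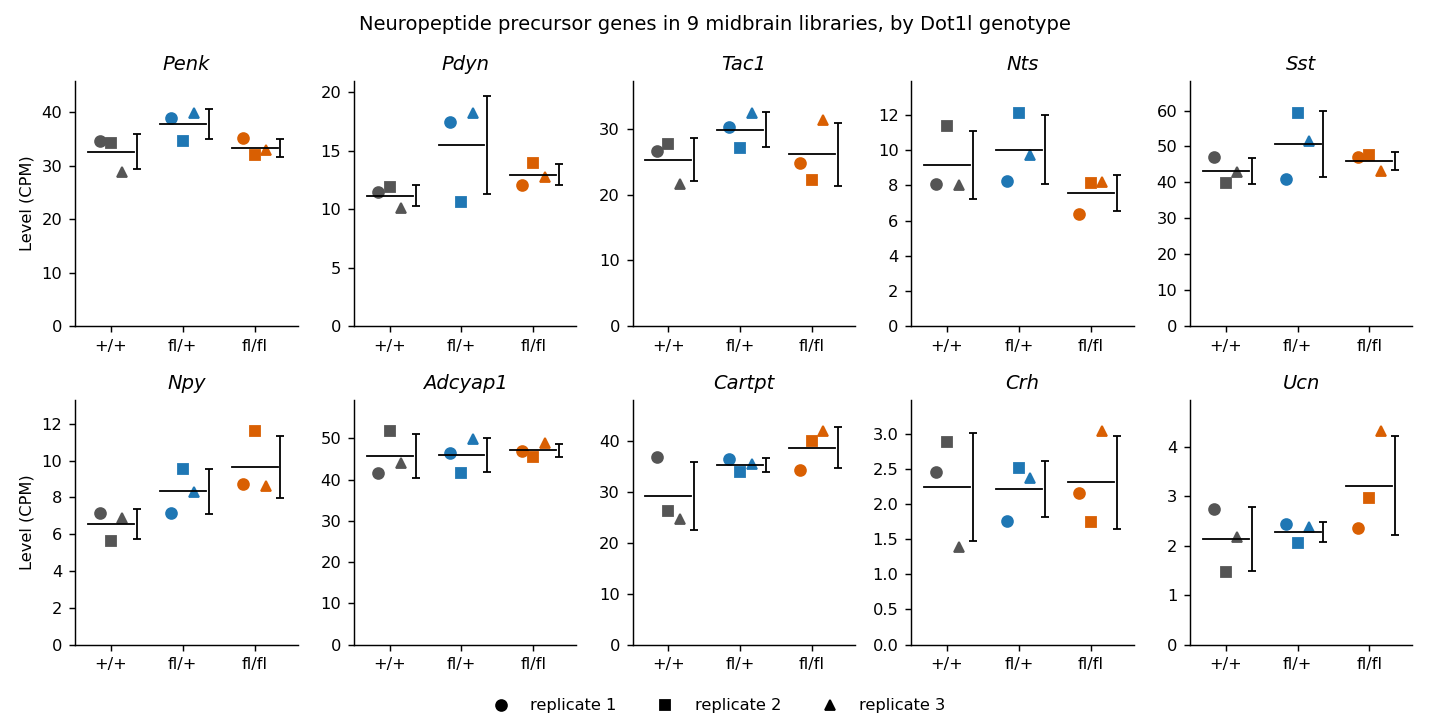
Level of the 10 precursor genes in CPM in each of the 9 libraries, by Dot1l genotype. Symbols are replicates 1, 2 and 3, lines are group means and bars are SD. Pdyn is highest in Dot1l(fl/+) replicates 1 and 3 (17.5 and 18.2 CPM), and the 3 Dot1l(fl/fl) libraries of Npy (8.61 to 11.6 CPM) lie above the 3 controls (5.62 to 7.14 CPM).

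The receptors of these peptides did not pass an adjusted p of 0.05 in any comparison. Of 24 receptor genes, 21 could be tested, and Tacr2, Npy4r and Npy6r had under 10 counts in every library. In Dot1l(fl/+) against Dot1l(+/+), 1 was higher at an unadjusted edgeR p under 0.05 (Sstr5, a somatostatin receptor, 0.75, on 10 to 26 counts a library) and 1 was lower (Npy1r, a receptor of neuropeptide Y, -0.27), where 4.3% and 4.09% of all genes were. Npy1r had 21.0, 22.3 and 22.5 CPM in Dot1l(+/+), 20.7, 16.1 and 17.8 in Dot1l(fl/+), while Dot1l(fl/fl) had 22.3, 24.7 and 20.9, so that the Dot1l(fl/+) libraries were below those of both other groups. In Dot1l(fl/fl) against Dot1l(+/+), 0 were higher and 1 was lower (Ntsr1), beside 2.21% and 1.72% of all genes. Between Dot1l(fl/fl) and Dot1l(fl/+), 2 were higher (Npy1r, 0.32, and Npy5r, 0.25) and 1 was lower (Ntsr1, -0.28), beside 3.6% and 2.87% of all genes. The medians over the 21 receptors were -0.027, 0.04 and -0.028 in the 3 comparisons. Per length, the most abundant were Sort1, a sorting receptor that also binds neurotensin, at 69.4 CPM per kb, and Adcyap1r1 at 43.2 CPM per kb.

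No gene of the machinery that cuts, sorts and releases the peptides passed an adjusted p of 0.05. All 18 genes of peptide processing and dense-core vesicles were tested, and the most abundant per length were Cpe, the carboxypeptidase that trims peptide intermediates, at 866 CPM per kb and the granin Scg2 at 200.2. At an unadjusted edgeR p under 0.05, 1 gene was higher in Dot1l(fl/+) than in Dot1l(+/+) (Scg5, a chaperone of a precursor-cutting protease, 0.11) and 1 was higher in Dot1l(fl/fl) than in Dot1l(+/+) (the granin Chgb, 0.18), where 4.3% and 2.21% of all genes were higher. Between Dot1l(fl/fl) and Dot1l(fl/+), 1 was lower (Vgf, a granin-like precursor, -0.21), beside 2.87% of all genes. The medians were 0.039, -0.0051 and -0.039. Of 11 genes that bind or degrade peptides, 0 passed an unadjusted p of 0.05 in any comparison, with medians of 0.017, 0.011 and -0.019, and Npepps and Ece2 were the most abundant per length.

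Each of the 10 genes was set beside all 17671 genes tested by the shape of its levels over the 9 libraries. Likeness was the root mean square difference of log2 CPM after each gene was centred on its own mean. The gene nearest to Penk was Resp18, a protein of endocrine dense-core vesicles, at 0.044, followed by BC037034 and Rnd1. For Pdyn they were Gbx2 at 0.114, Spsb2 and Pisd-ps2, and for Tac1 they were Kazald1 at 0.053, Lypd6b and Gpr108. Sst was nearest to Tmem204 at 0.066, Clic1 and Cst3. Npy was nearest to Gm6419 at 0.087, Blnk at 0.118 and Aif1 at 0.127, of which Aif1 is a widely used microglial marker. Adcyap1, whose own spread around its mean was the smallest at 0.103, was nearest to Tesk2 at 0.034, Heatr6 and Gga3. For Nts the nearest were Rfc4 at 0.127, Rnaset2a and Zfp772, and for Cartpt Gm15495 at 0.132, Pcdhga8 and Cutc. The genes with few counts had the most distant neighbours, Pcdha11 at 0.156, Gm5637 and Mfsd13b for Crh, and Slfn9 at 0.175, Gm13477 and Wnt10b for Ucn. Within the set, the closest pair was Penk and Tac1 at 0.126, then Penk and Adcyap1 at 0.141, and Npy and Cartpt stood at 0.218. The spread of Penk around its own mean was 0.133, so its distance to Adcyap1 is no smaller than that to a flat line. The 9 libraries differ in depth and tissue makeup, and these differences reach many genes at once, so the distances describe these libraries only.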

How the data were processed

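Bulk RNA from dissected midbrain was measured in 9 libraries, 3 for each of 3 Dot1l genotypes. The deposited counts per Ensembl gene were made by the authors from directional libraries with bcl2fastq 2.17 and Trimmomatic 0.30 on GRCm38.p4, per the submitters' processing notes; the aligner, the counter, its strand setting and the annotation are not given in the sources used here. The authors' DESeq2 1.10.1 comparisons, which hold fold changes and p-values, were not used. The series' design text speaks of sorted cells at E15.75, while the labels of all 9 libraries give dissected tissue at 180 days, and the labels were followed.

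Of 47729 identifiers, 47224 had a symbol and held 99.9% of counts. Counts were tested with edgeR 4.0.16 in R 4.3.3 (filterByExpr, TMM, quasi-likelihood test, genotype as the only factor, all 9 libraries in 1 fit) with Benjamini-Hochberg adjustment over 17671 genes. CPM used TMM-scaled library sizes, and log2 CPM for likeness had a prior count of 2. With 3 libraries against 3, an exact permutation test cannot go below 0.1, so it was not used. Lengths and positions are from GENCODE M21, and promoter windows from RefSeq. Alternatives were DESeq2 1.42.0, its size factors, fits of 2 genotypes, no filter, 10 counts in every library, a replicate block, another length, and leaving out each library. A fit with 1 of the Dot1l(fl/+) libraries alone was added after the data were seen. The code was tested on simulated data. The members and gene lists were chosen with earlier results of these data known. Named genes are the 10 members, genes of the peptide lists with an unadjusted p under 0.05 or the 2 highest levels per length in a list, the 3 nearest genes of each member, and Dot1l. Part of 1 marker list is not reported here. Markers named singly were chosen after their values were seen. Intervals cover the spread between pools.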

Additional observations from a re-analysis of the deposited data

How the results depend on the processing

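Log2 fold changes of the 10 genes moved little with the tool and the scaling (Pdyn in Dot1l(fl/+), 0.46 to 0.47). Over all settings, fits without a library among them, 470 values for single genes kept their direction and side of the adjusted threshold, 4 passed it and 26 changed sign. No gene passed that threshold in the main edgeR fit, so keeping its side says little. Size did not enter this tally: Pdyn at 0.33 and at 0.68 with 1 library left out both counted as kept. Genes past an adjusted p of 0.05 numbered 1 in Dot1l(fl/+) (Pdyn, 0.47) and 2 in Dot1l(fl/fl) (Cartpt, 0.41, and Npy, 0.56) without a filter, and 1 (Sst) with Dot1l(fl/+) replicate 2 alone. That library was kept after its values were seen and is assumed to vary like the other groups, so its calls restate that choice. Genes past an unadjusted p of 0.05 in Dot1l(fl/+) against Dot1l(+/+) numbered 6 with DESeq2 on the 2 genotypes and without a filter (Sst and Tac1 added), 5 with DESeq2 on all libraries and with 10 counts in every library (Sst added), 2 with that library alone and 0 to 5 when 1 library was left out (0 without Dot1l(fl/+) replicate 3, 1 without Dot1l(+/+) replicate 3, 2 without Dot1l(fl/+) replicate 1). In Dot1l(fl/fl) against Dot1l(+/+) they numbered 2 to 4. Against Dot1l(fl/+) they numbered 1 to 2, and 2 with edgeR on the 2 genotypes, with 10 counts in every library and with Dot1l(fl/+) replicate 2 alone, and 5 without a filter.

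With Dot1l(fl/+) replicate 2 alone, signs turned for Pdyn (-0.067), Adcyap1 (-0.14), Crh (0.18) and Ucn (-0.048) against Dot1l(+/+), and for Pdyn (0.28) and Crh (-0.15) in Dot1l(fl/fl) against Dot1l(fl/+). Crh was 0.00075 without a filter and 1.63e-05 with 10 counts in every library. Leaving out 1 library turned the sign in Dot1l(fl/+) of Nts (-0.024 to 0.33), Adcyap1 (-0.056 to 0.11), Crh (-0.27 to 0.23) and Ucn (-0.10 to 0.32), in Dot1l(fl/fl) of Penk (-0.046 to 0.084), Tac1 (-0.10 to 0.15), Adcyap1 (-0.022 to 0.14) and Crh (-0.24 to 0.26), and between these groups of Adcyap1 (-0.036 to 0.10) and Crh (-0.19 to 0.20). The cause was not tested.

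With the replicate number as a block, 4, 4 and 2 genes passed an unadjusted p of 0.05 in the 3 comparisons, with Nts added in Dot1l(fl/fl) against Dot1l(+/+) (-0.27) and Penk in Dot1l(fl/fl) against Dot1l(fl/+) (-0.18). Per the study's methods the pools drew matched genotypes from each nest, but neither they nor the labels tie the numbers to these sets. Same-numbered libraries deviated together with r of 0.022 to 0.317, over 0.1 in 6 of 9 pairs. Libraries of other numbers had r of -0.267 to 0.108, over 0.1 in 2 of 18 pairs. Not every library correlated best with its own number. Per length, another gene length gave Penk 22.5, Pdyn 4.68 and Tac1 12.9 CPM per kb. Crh and Ucn had under 80 counts in every library.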

Other observations

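Other neuropeptide precursors were read in the same fit. Of 20 genes, 13 could be tested, Nmu, Nms, Ucn2, Nppa, Prok2 and Galp had under 10 counts in every library, and none passed an adjusted edgeR p of 0.05. The most abundant per length was Cck, the cholecystokinin precursor that many dopamine neurons make, at 60.1 CPM per kb, then Apln at 15.6. In Dot1l(fl/+) against Dot1l(+/+), Gal (1.06 on the log2 scale), Pnoc (0.21) and Apln (0.20) were higher at an unadjusted p under 0.05, and 0 were lower, where 4.3% and 4.09% of all genes were. Gal, a galanin precursor gene with strong hypothalamic expression, had 2.66, 0.777 and 1.22 CPM in Dot1l(fl/+) against 0.526 to 1.04 in Dot1l(+/+), highest in the library with the most hypothalamic markers, whose part in it was not tested.

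In Dot1l(fl/fl) against Dot1l(+/+), Cck was higher without overlap, at 86.2, 90.2 and 77.8 CPM against 76.4, 69.8 and 69.9 (0.24, edgeR unadjusted p = 0.0272, adjusted p = 0.999), as were 5.03% of all genes. In Dot1l(fl/+) it had 65.5, 89.6 and 80.9 CPM. Cortical and hippocampal neuron markers summed to 804, 777 and 635 CPM in Dot1l(fl/fl), 650, 602 and 720 in Dot1l(+/+) and 645, 784 and 647 in Dot1l(fl/+). The part of these markers in the Cck values was not tested. Calcb, which encodes a calcitonin gene-related peptide, was lower without overlap, on 6 to 9 counts a library in Dot1l(fl/fl) against 15 to 20 in Dot1l(+/+) (-1.14, edgeR unadjusted p = 0.00699, adjusted p = 0.999), as were 5.25% of all genes. Against Dot1l(fl/+), Calcb (-1.11) and Pnoc (-0.21) were lower at an unadjusted p under 0.05 and 0 were higher, where 2.87% and 3.6% of all genes were.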
